A study of Mus musculus with 2 samples.

Results

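The cell cycle genes described here are 35 genes of the mouse, out of 31253 features in the count tables: 12 genes used in S phase, when DNA is copied, 19 genes of G2 and mitosis (G2/M), and 4 genes tied to dividing cells without a single phase (Stmn1, Tubb5, Tuba1b and Hmgb2). They were taken by symbol from a list drawn up with earlier results of these data known, and all 35 were present. The cells came from melanoma tumors grown under the skin of wild-type mice and were sorted as live CD45+ leukocytes before droplet-based single-cell RNA sequencing. Every host had first been vaccinated in the left flank with irradiated B16-GM-CSF cells, a B16 melanoma line that secretes this cytokine, and was injected in the right flank 12 days afterwards with B16 cells. These carried either shSdc1, a hairpin against the transcript of syndecan-1 (a heparan sulfate proteoglycan), or shRFP, the control hairpin. At 16 days from injection, 6 tumors of each group were pooled to make a single library. The shSdc1 sample is called a knockout by its genotype label, but according to its title and protocol the hairpin was in the tumor cells, and the sorted leukocytes belong to the host.

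A dividing cell first loads the Mcm2 to Mcm7 helicase on its DNA and makes nucleotides, then copies its DNA, condenses and separates the chromosomes, and splits. Genes of the first steps are driven largely by E2F factors. Genes of the last steps are held down in resting cells and early in the cycle by the DREAM complex and its relatives. These act at a promoter element called the cell cycle homology region. Later the genes are switched on together with NF-Y, which binds CCAAT boxes. In tumors, activated T cells divide, resting naive T cells do not, conventional dendritic cells and some macrophages can, and migratory dendritic cells carrying Ccr7 have largely left the cycle.

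There is 1 library per group, so no difference below was tested and none can be told apart from differences between mice, tumors, pools or library preparations. Levels are CPM, the unique molecular identifiers (UMIs) of a gene per 1000000 UMIs of the cells summed. Brackets hold 95% intervals that cover counting error only, and they are too narrow even for that because UMIs of 1 cell are not independent. The libraries held 5225 (shRFP) and 5576 (shSdc1) kept cells with 4116399 and 4281577 UMIs, a median of 662 and 601 per cell, and 17 barcode sequences occurred in both. Ptprc, the gene of CD45, had 1881 and 2479 UMIs. Sdc1 itself had 103 and 85 UMIs in the sorted cells, which are not the cells that carried the hairpin, so this does not check the knockdown. Cells were grouped by clustering without the cell cycle genes and are called T-like, NK-like and so on from marker genes.

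The promoters of the members carry the sequence elements named above, which the choice of members did not use. RefSeq (build GRCm38.p6) gave a window from 250 bases before to 50 bases after the start of 31 of the 35 genes (all but Aurkb, Mcm4, Stmn1 and Tpx2), 33 windows in all. The 8 stretches printed here are the 150 bases before the start of genes that differ in these elements, each named again in the results. Capitals mark a match on either strand to TTTGAA or TTCGAA (cell cycle homology region), CCAAT (reverse ATTGG) or an E2F site. The E2F sites searched were TTGGCGC, then TTCCCGC, then TTGCCGC, then TTCGCGC. E2F matches can overlap each other, TTCGAA reads alike on both strands, and adjoining matches form 1 run of capitals.
Mcm6 (chr1:128359706-128359855, minus strand): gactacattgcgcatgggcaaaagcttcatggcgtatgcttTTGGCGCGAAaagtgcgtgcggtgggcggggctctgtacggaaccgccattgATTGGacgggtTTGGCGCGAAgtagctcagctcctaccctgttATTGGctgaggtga
Rrm1 (chr7:102441545-102441694, plus strand): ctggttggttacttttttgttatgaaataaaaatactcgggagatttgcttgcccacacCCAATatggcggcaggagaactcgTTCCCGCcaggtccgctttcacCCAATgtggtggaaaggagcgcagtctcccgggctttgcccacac
Mcm3 (chr1:20820313-20820462, minus strand): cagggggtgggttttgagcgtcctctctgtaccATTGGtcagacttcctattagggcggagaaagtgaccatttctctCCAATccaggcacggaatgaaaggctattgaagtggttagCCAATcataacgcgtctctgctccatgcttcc
Tyms (chr5:30073626-30073775, minus strand): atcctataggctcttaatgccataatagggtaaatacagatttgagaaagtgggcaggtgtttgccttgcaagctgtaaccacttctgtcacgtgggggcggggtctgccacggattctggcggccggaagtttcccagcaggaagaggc
Top2a (chr11:99024190-99024339, minus strand): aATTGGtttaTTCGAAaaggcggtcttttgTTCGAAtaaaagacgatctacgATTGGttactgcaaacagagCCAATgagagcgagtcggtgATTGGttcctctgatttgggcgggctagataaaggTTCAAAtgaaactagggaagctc
Mki67 (chr7:135716380-135716529, minus strand): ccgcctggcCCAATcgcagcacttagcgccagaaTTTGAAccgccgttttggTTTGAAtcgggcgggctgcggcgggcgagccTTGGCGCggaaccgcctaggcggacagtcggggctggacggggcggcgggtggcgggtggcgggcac
Ccnb2 (chr9:70421555-70421704, minus strand): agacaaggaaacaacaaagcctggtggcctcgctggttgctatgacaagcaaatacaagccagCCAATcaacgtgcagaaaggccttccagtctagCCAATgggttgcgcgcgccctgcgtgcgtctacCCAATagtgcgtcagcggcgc
Cks2 (chr13:51645082-51645231, plus strand): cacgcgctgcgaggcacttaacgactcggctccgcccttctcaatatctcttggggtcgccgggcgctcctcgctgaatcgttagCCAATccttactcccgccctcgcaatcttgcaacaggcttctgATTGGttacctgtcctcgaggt

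Among these stretches Mcm6 held 4 overlapping E2F matches in 2 places and 2 CCAAT boxes, Top2a held 3 cell cycle homology regions and 4 CCAAT boxes, Ccnb2 held 3 CCAAT boxes, and Tyms held no match. Over the whole windows the S phase and G2/M members differed in which element they carried. A cell cycle homology region occurred in 13 of 18 windows of G2/M members (72.2% [46.5 to 90.3]) and in 2 of 12 windows of S phase members (16.7% [2.09 to 48.4]), beside 19.2% of all 32851 windows of the table. An E2F site occurred in 7 of 12 windows of S phase members (58.3% [27.7 to 84.8]) and 3 of 18 of G2/M members (16.7% [3.58 to 41.4]), beside 9.57% of all windows; within the 150 bases before the start the E2F shares of the members were 33.3% [9.93 to 65.1] and 16.7%. CCAAT boxes were common in both lists, with 9 of 12 and 14 of 18 windows against 37.4% of all. Other genes of the same phases, which are no members, are given for comparison, with the homology region in 28 of 38 windows of G2/M genes and an E2F site in 19 of 27 windows of S phase genes. Intervals for these shares are exact Clopper-Pearson intervals, and a match is a description of letters, not a bound site.

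**Figure D1:**
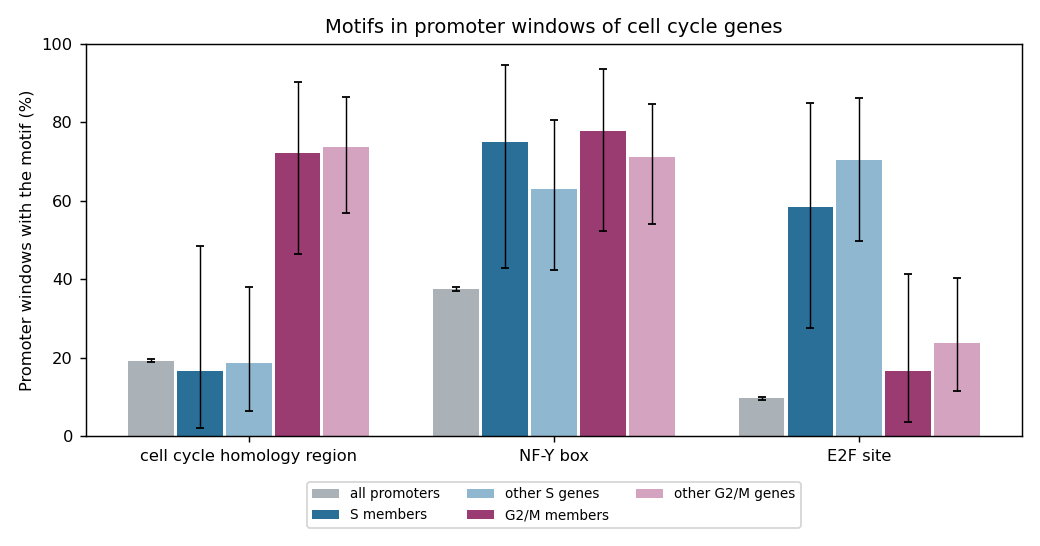
Share of RefSeq promoter windows (vertical axis, percent) that hold a cell cycle homology region, an NF-Y box (CCAAT) or an E2F site, for all promoters, the S phase and G2/M members and other genes of each phase; lines are exact 95% intervals. The homology region stands at 72.2% in G2/M members and 16.7% in S phase members, the E2F site at 16.7% and 58.3%.

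Within single cells the G2/M members with at least 10 UMIs followed their list, and most but not all S phase members did. In T-like cells of the shSdc1 library, each S phase member was compared between cells with at least 2 UMIs of other S phase genes and fewer than 2 of the G2/M list, and cells of the opposite kind, leaving the gene itself out. All 12 S phase members were higher in the S phase cells and all 19 G2/M members in the G2/M cells. The share of all measured genes that lean either way was not computed, so these counts have no background beside them. In the shRFP T-like cells 9 of 12 S phase members were higher in S phase cells, and Rrm1, Rrm2 and Tyms were higher in G2/M cells, as were all 17 G2/M members that had at least 10 UMIs in the compared cells. Plk1, a kinase of mitosis, was at 8.98 CPM in S phase cells and 194 CPM in G2/M cells of the shSdc1 T-like class. In monocyte/macrophage-like cells 9 of 12 (shRFP) and 7 of 12 (shSdc1) S phase members followed their list. Rrm1 and Tyms, enzymes of nucleotide supply, and Tk1, thymidine kinase, were higher in G2/M cells in both libraries. Rrm2 and Dut were higher in G2/M cells in shSdc1 only. Stmn1, Tubb5, Tuba1b and Hmgb2, 4 of 4 in each class and library, were higher in the G2/M cells.

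Cell cycle transcripts were highest in CD8 T-like and regulatory T-like cells in both phases and both libraries, and lowest in the macrophage cluster led by Hp and Chil3, although the intervals of the lowest groups overlap. The 12 S phase genes summed to 1879.7 CPM [1716 to 2055] in CD8 T-like cells of the shRFP library and 2091 [1971 to 2216] in shSdc1, and in regulatory T-like cells to 1503 and 1989.8 CPM. NK-like cells followed with 1239 and 1216 CPM. In shRFP the interval of CD8 T-like cells lay above that of regulatory T-like cells. In shSdc1 the intervals of CD8 and regulatory T-like cells overlapped, and NK-like cells stood apart below both; from NK-like cells downward neighbours in the order had overlapping intervals in both libraries. Naive T-like cells had 706 and 1114 CPM, cDC1-like cells 744 and 1039, cDC2-like cells 615 and 962, and C1q-led macrophages 913 and 947. Migratory dendritic-like cells had 216 and 192 CPM.

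The G2/M list gave nearly the same order. It summed to 2966 and 3451 CPM in regulatory T-like, 2666 and 3360 in CD8 T-like, 1927 and 1778 in NK-like cells and 1456 and 1102 in C1q-led macrophages, against 499 and 304 CPM in migratory dendritic-like cells. G2/M UMIs outnumbered S phase UMIs 1.63 to 1 in shRFP T-like cells and 1.66 to 1 in shSdc1, and 1.78 and 1.55 to 1 in dendritic-like cells. In monocyte/macrophage-like cells the ratio was 1.40 [1.30 to 1.504] in shRFP and 1.14 [1.06 to 1.22] in shSdc1. The lists differ in length, so only the change of this ratio between groups can be read. Neutrophil-like cells, 35 and 27 in number, which are not expected to divide, still had 1360 and 1332 CPM of the G2/M list, from 31 and 18 UMIs.

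**Figure D2:**
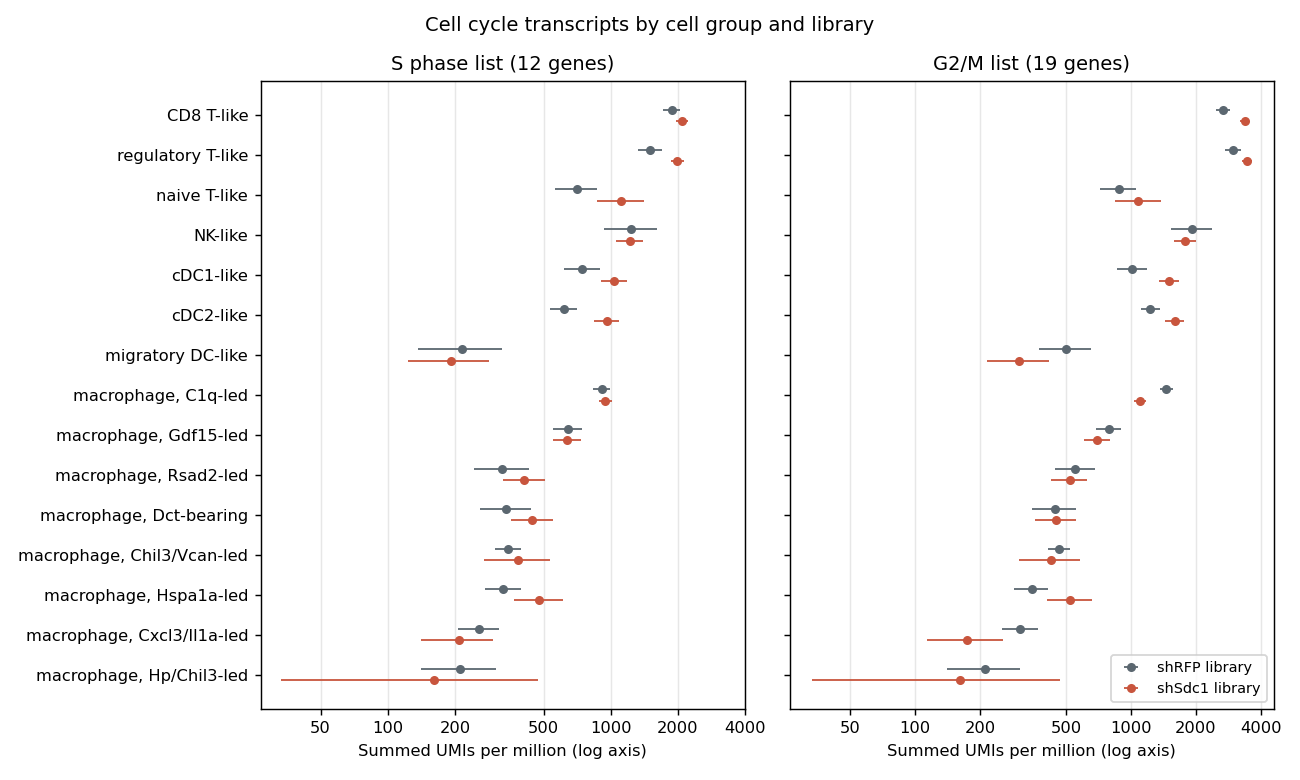
Summed CPM of the 12 S phase genes (left) and the 19 G2/M genes (right) on log axes, for 15 cell groups; points are libraries and lines are 95% counting intervals. CD8 and regulatory T-like cells lie highest in both panels, and the C1q-led macrophages are near equal for S phase (913 and 947 CPM) but lower in shSdc1 for G2/M (1456 and 1102 CPM).

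T-like cells of the shSdc1 library carried more cell cycle transcripts of both phases than those of shRFP. S phase genes went from 1456 CPM (905 UMIs in 1120 cells) to 1924 CPM (2285 UMIs in 1854 cells), a ratio of 1.32 [1.22 to 1.43]. G2/M genes went from 2371 to 3198 CPM, a ratio of 1.35 [1.27 to 1.43]. Of the 35 members, all with at least 20 UMIs, 33 were higher in shSdc1 (56.3% of the 8014 genes measured were), with Mcm7 and Ccnb1 the exceptions at ratios of 0.842 and 0.866. Past 1.5-fold upward lay 11 of 35, beside 12.2% of all measured genes, and past 1.5-fold downward 0, beside 7.2%. The members' median log2 ratio was 0.43 and that of all measured genes 0.07.

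Among S phase members in T-like cells, Tk1 and 3 helicase subunits were at least 1.5-fold higher. Mcm6 went from 72 to 218 UMIs (116 to 184 CPM), a ratio of 1.58 [1.21 to 2.10]. Mcm4 and Mcm5 had ratios of 1.52 [1.07 to 2.20] and 1.51 [1.09 to 2.12]. Tk1, which recycles thymidine, went from 54.7 to 89.2 CPM, 1.63-fold [1.10 to 2.48]. Pcna, the sliding clamp of the replication fork, stood at 230 and 312 CPM (ratio 1.36), and Tyms, thymidylate synthase, at 90.1 and 131 CPM (ratio 1.46 [1.07 to 2.02]). Rrm2, a subunit of ribonucleotide reductase, was nearly level at 117 and 124 CPM. Higher S phase members thus included helicase subunits, the clamp and nucleotide enzymes.

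Among G2/M members in T-like cells, Cep55, needed for the final cut between daughter cells, had the highest ratio, from 9 to 59 UMIs (14.5 to 49.7 CPM), 3.43-fold [1.69 to 7.87]. Plk1, a kinase of mitotic entry and exit, went from 15 to 79 UMIs (24.1 to 66.5 CPM), 2.76-fold [1.57 to 5.16]. Both rest on few UMIs in shRFP. Cenpe, a kinetochore motor, had a ratio of 1.81 [1.16 to 2.92], and Cks1b, a partner of cyclin-dependent kinases, 1.69 [1.28 to 2.25]. Top2a, the topoisomerase that untangles chromosomes, went from 136 to 428 UMIs (219 to 360 CPM), a ratio of 1.65 [1.36 to 2.01]. Ccnb2 and Nusap1, a cyclin and a spindle protein, had ratios of 1.61 [1.16 to 2.27] and 1.53 [1.08 to 2.21]. Mki67, the nuclear protein used to mark dividing cells, stood at 277 and 363 CPM (ratio 1.31), and Stmn1, which destabilizes microtubules, at 523 and 690 CPM (ratio 1.32). Ccnb1, the partner of Cdk1, was not higher, at 88.5 and 76.6 CPM.

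The make-up of the T-like class differed between the libraries. Naive-like T cells made up 27.4% of T-like cells in shRFP and 7.98% in shSdc1. Without them the ratios were 1.20 for S phase and 1.21 for G2/M, and with the T sub-clusters weighted alike in both libraries 1.21 and 1.17. Regulatory T-like cells had ratios of 1.32 [1.15 to 1.52] for S phase and 1.16 [1.05 to 1.29] for G2/M, although with at least 500 genes per barcode the G2/M ratio was 0.945. CD8 T-like cells had 1.11 [0.999 to 1.24] and 1.26 [1.15 to 1.38]. They pool sub-clusters with G2/M ratios of 1.18 [1.02 to 1.36], 0.924 [0.757 to 1.13] and 1.33 [1.15 to 1.55]. The first of these had the highest G2/M level (3393 and 3987 CPM). It held 117 of 428 CD8 T-like cells in shRFP and 374 of 849 in shSdc1. In regulatory T-like cells 28 of 35 members were higher (53.3% of measured genes), 8 by at least 1.5-fold (16.2%) and 2, Mcm7 and Aurkb, were lower by as much (10.4%). In CD8 T-like cells 27 of 35 were higher (51.4%), 6 by at least 1.5-fold (13.9%) and 1, Ccnb1, was lower by as much (9.97%). Plk1 was the member with the highest ratio in both, with 2 and 32 UMIs in regulatory and 4 and 38 UMIs in CD8 T-like cells. Top2a had ratios of 1.93 [1.33 to 2.88] and 1.38 [1.05 to 1.83] in these cells. Mcm7 stood at 166 and 85.5 CPM in regulatory T-like cells. Naive-like T cells had few such UMIs, 87 and 70 for S phase and 108 and 68 for G2/M (877 and 1082 CPM). Their ratios were 1.58 [1.135 to 2.19] for S phase and 1.23 [0.898 to 1.69] for G2/M. In these cells 8 members were measured, 4 of them higher (50.6%), all 4 by at least 1.5-fold (19.2%) and 0 lower by as much (15.2%). Stress genes stood at 5071 and 3483 CPM in T-like cells, all 10 of 10 detected in both libraries, and macrophage markers, 18 of 18 detected, at 1848 and 2014 CPM. The part of the stress genes was not tested, and without the sub-cluster that holds most macrophage UMIs (50 and 86 cells) the ratios were 1.33 and 1.38.

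After each cell was thinned to 300 UMIs, to compare at 1 depth, the share of T-like cells with at least 2 UMIs of the G2/M list was 11.0% (98 of 887) in shRFP and 16.3% (251 of 1539) in shSdc1, a ratio of 1.48 [1.16 to 1.88]. The share for the S phase list was 7.33% and 9.62%, a ratio of 1.31 [0.974 to 1.78]. Unthinned shares were 16.0% and 23.1% for G2/M and 16.5% and 22.8% for S phase, at medians of 400.5 and 450.5 UMIs per cell, and thinning left out 233 and 315 shallower cells. At 500 UMIs the G2/M share ratio was 1.06. In migratory dendritic-like cells, which should largely lack these transcripts, the thinned G2/M share was 0.690% (1 of 145 cells) and 0.629% (1 of 159), at medians of 659.5 and 721.5 UMIs. Neutrophil-like cells, which are not expected to divide either, were not low, with 1360 and 1332.5 CPM of the G2/M list from 31 and 18 UMIs. Most cells called for G2/M did not also reach 2 UMIs of the S phase list. Of thinned T-like cells, 9.47% in shRFP and 13.3% in shSdc1 were called for G2/M alone, and 1.58% and 2.99% for both. S phase UMIs were still more frequent in cells called for G2/M than in cells without a G2/M UMI. At least 1 occurred in 37.8% against 22.03% of these T-like cells in shRFP, and in 47.4% against 21.1% in shSdc1. The exact intervals of these shares did not overlap in either library.

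**Figure D3:**
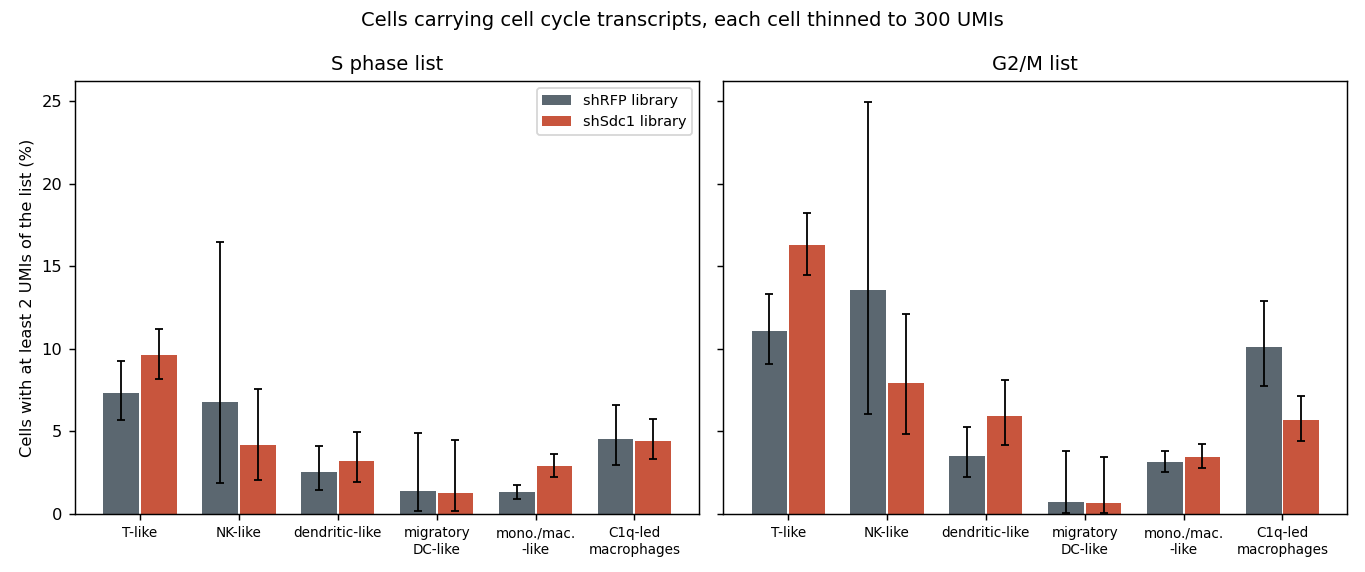
Percent of cells (vertical axis) with at least 2 UMIs of the S phase list (left) or the G2/M list (right) after thinning each cell to 300 UMIs, by cell group and library; lines are exact 95% intervals. The G2/M share is higher in shSdc1 in T-like cells (11.0% and 16.3%) and lower in the C1q-led macrophages (10.1% and 5.67%).

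Dendritic-like cells, conventional, migratory and plasmacytoid together, showed more cell cycle UMIs in shSdc1 in both phases. S phase genes went from 572 to 811 CPM, a ratio of 1.42 [1.23 to 1.63], and G2/M genes from 1017 to 1256 CPM, a ratio of 1.23 [1.11 to 1.38]. Of the 35 members, all measured, 28 were higher (50.3% of 6477 measured genes were), 13 by at least 1.5-fold (12.1% of measured genes) and 1, Mcm4, lower by at least 1.5-fold (11.1%), from 22 to 12 UMIs with a ratio of 0.543 [0.245 to 1.15]. With a minimum of 50 UMIs per gene, 8 were higher and 0 lower by 1.5-fold. The members' median log2 ratio was 0.43, and that of all measured genes 0.01.

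Tk1 had the highest ratio of the members in dendritic-like cells. It went from 6 to 23 UMIs (9.92 to 37.9 CPM), 3.81-fold [1.51 to 11.5], and Tyms from 18 to 39 UMIs (29.8 to 64.2 CPM), 2.16-fold [1.20 to 4.004]. Mcm3, a helicase subunit, went from 34 to 57 UMIs (56.2 to 93.8 CPM), 1.67-fold [1.07 to 2.63]. Top2a went from 31 to 80 UMIs (51.3 to 132 CPM), 2.57-fold [1.68 to 4.02]. Nusap1 and Tpx2, both of the spindle, had ratios of 2.83 [1.47 to 5.81] and 2.84 [1.15 to 7.96], and Aurkb, a kinase of chromosome segregation, 2.16 [1.05 to 4.69]. Mki67 went from 86.0 to 151 CPM, 1.76-fold [1.24 to 2.52], and Hmgb2, a chromatin protein, from 476 to 752 CPM, 1.58-fold [1.36 to 1.84]. Pcna stood at 132 and 178 CPM (ratio 1.34), Stmn1 at 228 and 309 CPM (ratio 1.36), and Mcm6 at 48.0 and 52.7 CPM. Ccnb1, Ccnb2 and Cenpa were not higher, with ratios of 0.761, 0.707 and 0.860.

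Conventional subsets were higher in shSdc1 and migratory cells were not. cDC1-like cells (140 and 165) had ratios of 1.40 [1.11 to 1.76] for S phase and 1.48 [1.22 to 1.80] for G2/M, and cDC2-like cells (322 and 242) 1.56 [1.29 to 1.90] and 1.30 [1.13 to 1.499]. Of 24 measured members 21 were higher in cDC1-like cells (53.2% of measured genes), 8 by at least 1.5-fold (15.4%) and 1 lower by as much (12.3%). In cDC2-like cells 23 of 28 lay above 1 (48.1%), of which 11 reached 1.5-fold (12.1%), and 0 were 1.5-fold lower (14.8%). In cDC1-like cells Top2a went from 9 to 41 UMIs, Cdk1, the kinase of mitotic entry, from 3 to 19, and Nusap1 from 3 to 20. In cDC2-like cells Mki67 went from 29 to 48 UMIs (89.6 to 197 CPM), 2.20-fold [1.36 to 3.62]. Migratory dendritic-like cells had a G2/M ratio of 0.610 [0.391 to 0.943], from 53 and 38 UMIs (0.380 [0.221 to 0.637] with at least 500 genes and 0.692 [0.432 to 1.10] with likely doublets removed), and plasmacytoid-like cells, 28 and 34 in number, had 4 and 3 G2/M UMIs. B cell and plasma cell markers stood at 1242 and 242 CPM in the dendritic-like class, and stress genes at 9016 and 5132 CPM. Their part in the result was not tested.

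**Figure D4:**
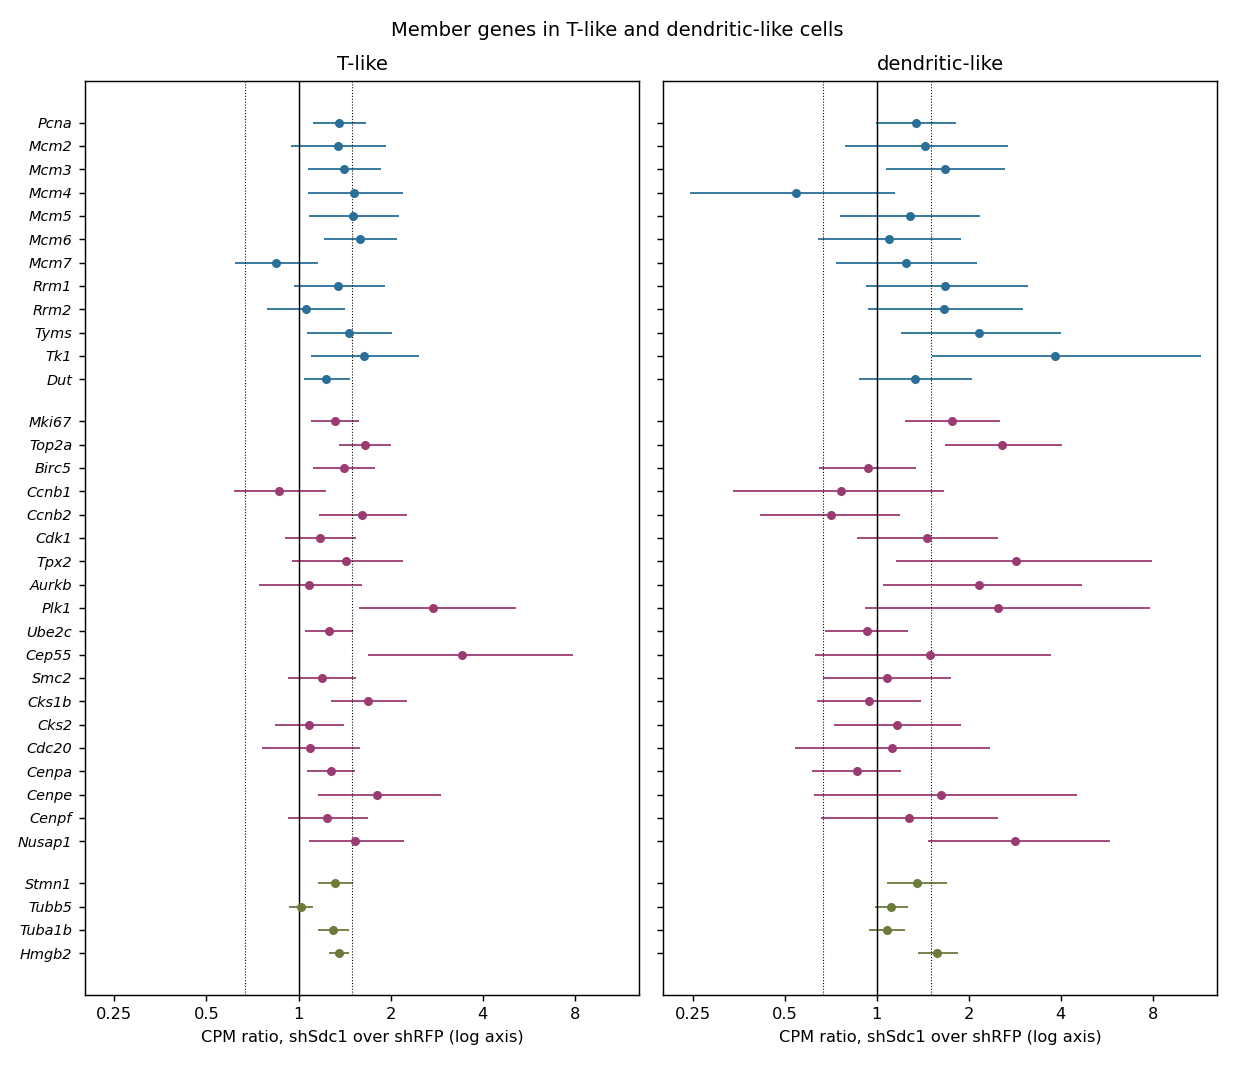
CPM ratio of shSdc1 over shRFP (log axis) for the 35 members in T-like (left) and dendritic-like cells (right), S phase genes in blue, G2/M genes in purple and the others in green; lines are 95% counting intervals and dotted lines mark 1.5-fold. In T-like cells 33 of 35 points lie above 1, and in dendritic-like cells 28 of 35.

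NK-like cells were few, 82 in shRFP and 279 in shSdc1, and the intervals of both phase ratios included 1. S phase genes stood at 1239 CPM (54 UMIs) and 1216 CPM (195 UMIs), a ratio of 0.982 [0.723 to 1.35], and G2/M genes at 1927 and 1778 CPM, a ratio of 0.923 [0.721 to 1.19]. With classes taken from markers per barcode the S phase ratio was 1.67. The 4 members without a single phase summed to 4060.2 and 3243.5 CPM, a ratio of 0.799 [0.672 to 0.953]. Only 16 of the 35 members had at least 20 UMIs. Of these 7 were higher in shSdc1 (53.3% of measured genes were), 2 by at least 1.5-fold (21.5%), Mcm6 and Top2a, and 3 were lower by at least 1.5-fold (15.1%), Dut, Ube2c and Tuba1b. The higher count was 5 with TMM factors and 0 with a minimum of 50 UMIs. Top2a went from 2 to 39 UMIs (45.9 to 243 CPM), with a ratio of 5.30 [1.37 to 45.3]. Tuba1b, an alpha-tubulin, went from 43 to 86 UMIs (986 to 536 CPM), a ratio of 0.544 [0.373 to 0.804], and Ube2c, an enzyme that marks cyclins for destruction, from 17 to 32 UMIs (390.0 to 199.6 CPM), 0.512 [0.276 to 0.983]. Mki67 was at 184 and 256 CPM, Pcna at 138 and 193, Tyms at 68.8 and 74.9 and Stmn1 at 596 and 642, all from 26 UMIs or fewer in shRFP. TMM factors raised every NK-like ratio by 0.25 on the log2 scale, which put S phase at 1.17 [0.861 to 1.61] and G2/M at 1.10 [0.858 to 1.42], so these data give no direction for NK-like cells. Stress genes stood at 3831 and 2526 CPM in them.

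Monocyte/macrophage-like cells, the largest class with 3111 and 2572 cells, were also higher in shSdc1 in both phases, by a larger ratio for S phase. S phase genes went from 477 to 688 CPM, a ratio of 1.44 [1.34 to 1.56], and G2/M genes from 667 to 784 CPM, a ratio of 1.18 [1.10 to 1.26]. All 35 members were measured, and 31 were higher (58.1% of 9349 genes were), 9 by at least 1.5-fold (14.8%) and 1 lower by at least 1.5-fold (8.13%). The count of 9 was 5 with TMM or median-of-ratios factors, which lower every ratio by 0.09 and 0.12 on the log2 scale, and 5 with likely doublets removed, where 0 were lower. Mcm7 went from 56 to 108 UMIs (21.4 to 51.6 CPM), 2.41-fold [1.73 to 3.40], Tk1 2.11-fold [1.504 to 2.98], Mcm2 2.05-fold [1.39 to 3.05] and Mcm6 1.92-fold [1.44 to 2.56]. Top2a, Cdk1, Tpx2 and Mki67 had ratios of 1.58, 1.53, 1.52 and 1.51. Cks2, the second partner of cyclin-dependent kinases, went from 195 to 101 UMIs (74.4 to 48.2 CPM), a ratio of 0.648 [0.505 to 0.829]. In shRFP 84 Cks2 UMIs lay in cells with no other S phase or G2/M UMI and 46 in G2/M cells. Pcna, Tyms and Stmn1 had ratios of 1.25, 1.34 and 1.497. Pcna is not confined to cycling cells either. In shRFP 275 Pcna UMIs lay in cells with no other S phase or G2/M UMI and 52 in S phase cells, at 164 and 389 CPM. In shRFP it gave 69 of 92 S phase UMIs in the Cxcl3 and Il1a-led cluster. In the cluster led by Hp and Chil3 it gave 23 of 28. The thinned S phase share was 1.29% (39 of 3015 cells) in shRFP and 2.87% (69 of 2408) in shSdc1, a ratio of 2.22 [1.47 to 3.37]. Unthinned it was 8.10% and 11.6%, a ratio of 1.43, and 96 and 164 shallower cells were left out of the thinned share. Migratory dendritic-like cells, a group low in cell cycle UMIs, had thinned S phase shares of 1.38% (2 of 145 cells) and 1.26% (2 of 159). The thinned G2/M share of the macrophage class was 3.12% and 3.45%, a ratio of 1.11 [0.813 to 1.501].

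The make-up of this class differed between the libraries too. The cluster led by C1qa and Apoe, genes of complement and lipid handling, held 18.4% of the class's cells in shRFP and 48.6% in shSdc1, and it had the highest cell cycle level of the 8 macrophage clusters. The cluster led by Chil3 and Vcan went from 23.4% to 4.39%. With clusters weighted alike in both libraries the S phase ratio was 1.07 and the G2/M ratio 0.832, the opposite direction for G2/M. Melanoma genes in this class went from 29 to 189 UMIs, with 17 and 153 of them in the cluster that bears Dct, and stress genes from 10770 to 6094 CPM. The part of the stress genes was not tested; without the Dct-bearing cluster the ratios were 1.47 and 1.20.

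Inside the C1q-led cluster, 572 and 1251 cells, S phase transcripts were level and G2/M transcripts lower in shSdc1. S phase genes had 913 and 947 CPM, a ratio of 1.04 [0.930 to 1.16]. G2/M genes had 1456 and 1102 CPM, a ratio of 0.757 [0.691 to 0.830]. G2/M UMIs per S phase UMI were 1.59 [1.43 to 1.78] in shRFP and 1.16 [1.07 to 1.27] in shSdc1, an odds ratio of 0.730 [0.633 to 0.843]. Of the 19 G2/M members 17 had a ratio below 1, while 7 of the 12 S phase members lay above it; 52.3% of the 7228 measured genes did. The thinned G2/M share was 10.1% (56 of 554 cells) in shRFP and 5.67% (67 of 1181) in shSdc1, a ratio of 0.561 [0.388 to 0.815], against 4.51% and 4.403% for S phase; unthinned shares were 24.1% and 14.5% for G2/M. Median depth was 892 and 659 UMIs per cell, and at 500 UMIs the G2/M share was 17.8% and 11.4%.

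Members lower by at least 1.5-fold in the C1q-led cluster were 6 of 35, all of the G2/M list, beside 9.38% of measured genes. Cdc20, which starts anaphase, had 27 and 24 UMIs (48.0 and 24.0 CPM), a ratio of 0.5005 [0.276 to 0.901]. Cenpa, the centromere histone, had 142 and 78.0 CPM, a ratio of 0.549 [0.397 to 0.759], and Cks2 83.5 and 47.0 CPM, 0.563 [0.368 to 0.862]. Neither is confined to cycling cells. In the whole shRFP macrophage class 94 Cenpa UMIs lay in cells with no other S phase or G2/M UMI, and 76 in G2/M cells. For Cks2 these were 84 and 46. Levels were still higher in G2/M cells, at 376 against 61.4 CPM for Cenpa and 221 against 55.0 CPM for Cks2. Ccnb2 had 103 and 62.0 CPM, 0.602 [0.414 to 0.876], and Ccnb1 and Cenpe ratios of 0.616 [0.370 to 1.03] and 0.631 [0.354 to 1.13]. By as much 1 member, Mcm6, was higher (13.3%), from 51.5 to 87.1 CPM, 1.69-fold [1.10 to 2.67]. Mki67 and Top2a were not lower and stood at 103 and 103 CPM and at 90.6 and 104 CPM. Pcna was at 236 and 257 CPM, Tyms at 72.9 and 56.0 and Stmn1 at 418 and 403.

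The G2/M ratio of C1q-led cells lay between 0.742 and 0.796 under 5 other ways of choosing them (doublets removed, at least 500 genes, cell cycle genes kept in the clustering, another clustering seed, and macrophage-like cells with at least 10 C1q UMIs), and the S phase ratio between 1.02 and 1.09; these were tried after the data were seen. Stress genes were lower in shSdc1 in this cluster too, at 6620.2 and 3849.5 CPM, and their part in the result was not tested. T cell markers (12 of 12 detected) were at 65.8 and 80.1 CPM and NK cell markers at 8.89 and 9.01 CPM in it. Other macrophage clusters differed among themselves. The cluster led by Hspa1a had ratios of 1.45 for S phase and 1.51 [1.11 to 2.04] for G2/M, the one led by Cxcl3 and Il1a 0.810 and 0.568 [0.356 to 0.878], and the one led by Gdf15 0.994 and 0.878. Ratios of these other clusters come from the main clustering alone.

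**Figure D5:**
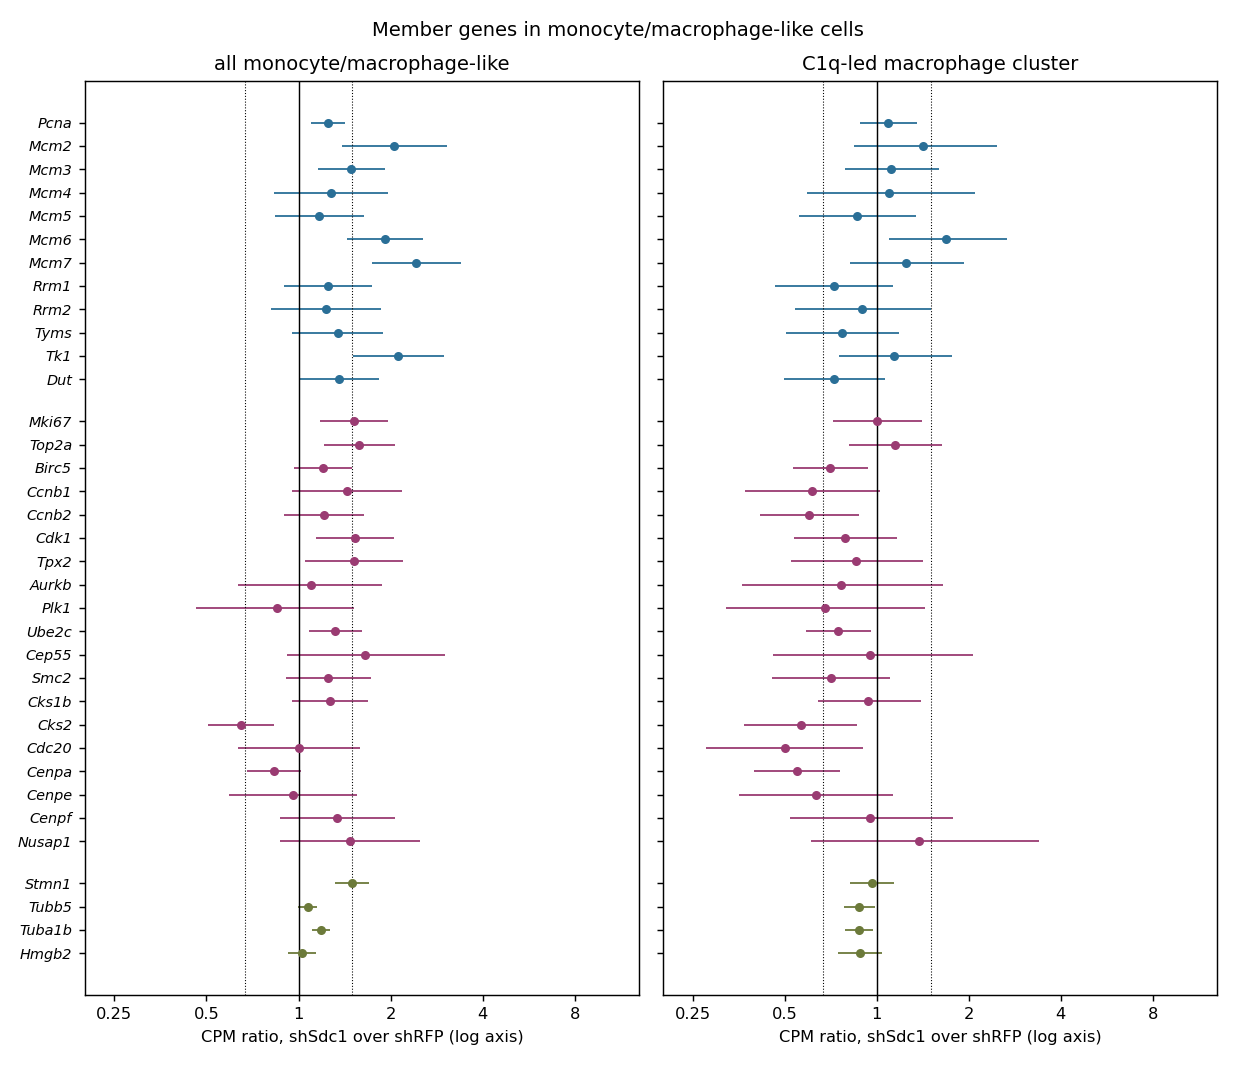
CPM ratio of shSdc1 over shRFP (log axis) for the 35 members in all monocyte/macrophage-like cells (left) and in the C1q-led cluster (right), S phase genes in blue, G2/M genes in purple and the others in green; lines are 95% counting intervals and dotted lines mark 1.5-fold. In the class 31 of 35 points lie above 1, and in the C1q-led cluster 17 of 19 G2/M points lie below 1.

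Other cell cycle genes, which are no members, were compared too. In T-like cells, of 33 measured other S phase genes 7 passed 1.5-fold upward and 0 downward, and of 36 other G2/M genes 12 higher and 1 lower, beside 12.2% and 7.2% of measured genes. Cdc45, a partner of the helicase, went from 8 to 43 UMIs (2.81-fold) and Ncapd2, a condensin subunit, from 27 to 103 (1.997-fold). The T-like class differed in make-up between the libraries. In regulatory T-like cells 3 of 20 other S phase genes passed 1.5-fold upward and 2 downward. Of 27 other G2/M genes there 7 were higher and 3 lower, beside 16.2% and 10.4% of measured genes. In CD8 T-like cells these counts were 4 and 2 of 26, and 8 and 0 of 30, beside 13.9% and 9.97%. Median log2 ratios of the other G2/M genes were 0.0005 and 0.15. In monocyte/macrophage-like cells 11 of 31 other S phase genes and 5 of 34 other G2/M genes passed 1.5-fold upward, beside 14.8% of all measured genes in that class, and 0 of either list downward, beside 8.13%. The G2/M count is near the background. Rpa2, of the single-strand DNA binding complex, had a ratio of 2.16 in this class. The make-up of the class differed between the libraries. Inside its C1q-led cluster 2 of 25 measured other S phase genes passed 1.5-fold upward and 4 downward (median log2 ratio 0.034). Of 30 other G2/M genes there 2 were higher and 6 lower by as much (median -0.33), beside 13.3% and 9.38% of measured genes. In dendritic-like cells 5 of 21 other S phase genes passed 1.5-fold upward and 0 downward, and of 24 other G2/M genes 7 upward and 2 downward, beside 12.1% and 11.1% of measured genes. In NK-like cells only 4 other S phase and 9 other G2/M genes were measured, with 3 and 2 past 1.5-fold upward and 1 of each downward, beside 21.5% and 15.1% of measured genes. Of 13 genes of entry into the cycle, 2 passed 1.5-fold upward and 0 downward in T-like cells. In monocyte/macrophage-like cells these were 5 and 1 of 13, in dendritic-like cells 2 and 0 of 10, and in NK-like cells 1 and 1 of 4. The medians of the log2 ratio were 0.097, 0.43, 0.32 and 0.26 in these classes. Inside the C1q-led cluster 2 of 12 were higher and 0 lower by as much. Genes that hold cells out of the cycle went both ways. Their median log2 ratio was -0.15 in T-like, -0.0043 in NK-like, -0.34 in dendritic-like and -0.49 in monocyte/macrophage-like cells. It was -0.19 in regulatory and -0.078 in CD8 T-like cells. Past 1.5-fold were 0 of 8 in T-like cells, 2 higher and 2 lower of 7 in dendritic-like cells, and 1 higher and 3 lower of 8 in monocyte/macrophage-like cells. Cdkn1b, an inhibitor of cyclin-dependent kinases, had a ratio of 0.709 [0.549 to 0.919] in T-like and 0.594 [0.384 to 0.906] in dendritic-like cells, and Cdkn1a, a second such inhibitor, 0.630 [0.517 to 0.766] in dendritic-like cells. In the opposite direction Rbl2, a relative of the retinoblastoma gene, had a ratio of 1.38 [1.05 to 1.83] in T-like cells, and Cdkn2d, another inhibitor gene, 1.59 [1.08 to 2.36] in dendritic-like cells. Btg1 and Btg2, antiproliferative genes, had ratios of 0.555 and 0.568 in monocyte/macrophage-like cells, where the inhibitor gene Cdkn2c had a ratio of 2.14 [1.35 to 3.45]. These are values of the whole class, whose make-up differed between the libraries. Inside its C1q-led cluster the 8 genes of this list had a median log2 ratio of 0.0080. There 1 was higher and 1 lower by at least 1.5-fold.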

How the data were processed

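The authors deposited UMI counts, 1 unnormalized matrix for each of the 2 libraries. Per the file headers Cell Ranger 6.1.1 made them, and per the submitters' processing notes mm10 was the build, with the annotation not given in the sources used here. Barcodes with at least 200 genes and under 10% mitochondrial UMIs were kept, and doublets were kept (the automatic Scrublet threshold marked 2 and 4 barcodes). After scaling each cell to 10000 UMIs, 2000 variable genes without cell cycle genes gave 30 principal components and Leiden clusters (leidenalg 0.10.2, resolution 1). A cluster took the class whose markers had a mean log2 fold of at least 1 with at least 3 markers at 2-fold, unless another class had more markers among its top genes, a rule set after the data were seen; the cluster led by Retnla (111 and 147 cells), 2 clusters of 1 cell and 2 T sub-clusters stayed unnamed.

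UMIs were summed per class and library (CPM), with exact Poisson, conditional binomial and Clopper-Pearson intervals (scipy 1.17.1) in place of tests, since a group is 1 library. Genes with at least 20 UMIs over both libraries were measured. Counts were simulated for the T-like class as independent Poisson draws, without variation between cells or pools, over 7795 genes with 200 changed. The interval assumes the same, so its coverage checks the calculation and not how well it suits real UMIs. It held the true fold for 96.3% of unchanged genes, 95.0% at 2-fold and 98.0% at 3-fold. A ratio of 1.5 was passed by 88.0% at 2-fold and 6.79% of unchanged genes. Full values are given for members 1.5-fold apart with an interval without 1, and for Mki67, Top2a, Pcna, Mcm6, Tyms and Stmn1; others were named after their values were seen. Members and lists were chosen with earlier results of these data known. Alternatives covered doublets, gene minimum, clustering, scaling (TMM of edgeR 4.0.16, median-of-ratios), thinning, lists and window.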

Additional observations from a re-analysis of the deposited data

Results flagged for a closer look

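The G2/M genes differed in opposite directions between cell groups of the same comparison, each with a counting interval on its own side of 1, and the difference between groups was not tested. They were higher in shSdc1 in regulatory T-like cells (ratio 1.16), CD8 T-like cells (1.26), cDC1-like cells (1.48), cDC2-like cells (1.30) and the Hspa1a-led macrophage cluster (1.51). They were lower in migratory dendritic-like cells (0.610), the C1q-led macrophage cluster (0.757) and the Cxcl3 and Il1a-led macrophage cluster (0.568). With at least 500 genes per barcode the regulatory T-like ratio was 0.945, the reverse direction. The migratory ratio was 0.380 with that minimum and 0.692 with likely doublets removed, there with an interval that included 1. CD8 T-like cells pool sub-clusters with ratios from 0.924 to 1.33. The Hspa1a-led ratio rests on 121 and 70 G2/M UMIs, and the Cxcl3 and Il1a-led ratio on 110 and 26. Both come from the main clustering alone and were not repeated under the other settings.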

How the results depend on the processing

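No paired analysis was possible because each group is 1 library, and for the same reason no replicate could be left out. Under the alternatives 58 S phase ratios, 58 G2/M ratios, 37 values of G2/M UMIs per S phase UMI, 30 S phase and 35 G2/M share ratios stayed within the counting interval of the reported value, and 27 counts of members stayed within 1.5 times. The exceptions follow, and alternatives that leave out or add clusters were chosen after the data were seen; the cause was not tested except where the alternative itself changes the cells or genes counted. In T-like cells the S phase ratio was 1.21 with classes from markers per barcode, 1.21 with sub-clusters weighted alike and 1.20 without naive-like cells, and the G2/M ratio was 1.26, 1.17 and 1.21 under these and 1.18 with at least 500 genes per barcode. The G2/M share ratio was 1.06 at 500 UMIs. In NK-like cells the S phase ratio was 1.42 with at least 500 genes and 1.67 with classes per barcode. Their count of members at least 1.5-fold higher was 0 with a minimum of 50 UMIs, 5 with no minimum, with TMM or with median-of-ratios factors, and 4 without doublets; the lower count was 1 and 8 with a minimum of 50 and none. In dendritic-like cells the G2/M ratio was 1.39 with classes per barcode and 1.38 with Hmgb2 added and Smc2 and Cks1b taken out of the list, and a minimum of 50 UMIs left 8 members higher and 0 lower. In monocyte/macrophage-like cells the S phase ratio was 1.32 with at least 500 genes, 1.33 with median-of-ratios factors, 1.57 without Pcna, 1.07 with clusters weighted alike and 1.27 without the C1q-led cluster. Their G2/M ratio was 1.05, 1.08, 0.832 (the reverse) and 1.10 for the same settings without the one on Pcna. The S phase share ratio of 2.22 was 1.33 for at least 1 UMI and 1.43 unthinned, 5 members were higher with TMM, with median-of-ratios factors and without doublets, and 0 were lower without doublets. The G2/M ratio of regulatory T-like cells was 0.945 with at least 500 genes, the reverse direction. The G2/M ratio was 1.38 in CD8 T-like and 0.380 in migratory dendritic-like cells with at least 500 genes, and 1.10 in cDC2-like cells with cell cycle genes kept in the clustering.

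G2/M UMIs per S phase UMI depend on the lists: with Hmgb2 in and Smc2 and Cks1b out they were 2.43 and 2.48 in T-like, 2.54 and 2.34 in NK-like, 2.34 and 2.29 in dendritic-like and 1.88 and 1.46 in monocyte/macrophage-like cells. With at least 500 genes they were 1.88 and 1.805 in T-like cells and 3 in NK-like cells of shRFP. Within the 150 bases before the start, homology regions occurred in 9.70% of all windows, 44.4% of G2/M members and 31.6% of other G2/M genes, CCAAT boxes in 24.5% of all, and E2F sites in 5.47% of all, 33.3% of S phase members, 16.7% of G2/M members, 44.4% of other S phase genes, 10.53% of other G2/M genes and 0 of the windows of members without a single phase. Depth limits the small groups: 16 of 35 members had at least 20 UMIs in NK-like and 8 in naive-like cells, and most had fewer in neutrophil-like, plasmacytoid, B and plasma and migratory dendritic-like cells.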
